A study of Mus musculus with 15 samples.

Results

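The 39 genes described here carry out glutathione chemistry and the antioxidant response governed by the transcription factor NRF2. They were chosen by name for these functions, with earlier results of these data known, and all 39 were found among the 55416 genes of the deposited count table. By role they comprised 4 genes of glutathione synthesis, 4 of glutathione recycling and NADPH supply, 3 glutathione peroxidases, 16 glutathione transferases, 4 genes of the thioredoxin system, 2 quinone and haem enzymes, 4 genes of superoxide and peroxide removal, and 2 regulators. They were measured in 15 samples of SVI cells, a conditionally immortalised line of mouse podocytes, which are the epithelial cells wrapped around the capillaries of the kidney glomerulus. All 4 groups were differentiated cells of this line on flexible silicone membranes, with no allele or agent named in the labels, and a culture of a single line lacks the vessels and the other cells of a glomerulus. Experiment 1 held 3 unstretched samples and 6 samples under low stretch, labelled with a membrane deflection of 5 to 6 mm. Experiment 2 held 3 unstretched samples and 3 samples under high stretch, labelled 7 to 8 mm. The comparisons were made within each experiment, stretched against unstretched, to ask which genes mechanical load alters. Amplitude and experiment cannot be told apart.

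Glutathione is a tripeptide that reduces peroxides and is coupled to reactive compounds. Its synthesis is limited by glutamate-cysteine ligase, whose catalytic subunit is GCLC and whose modifier subunit is GCLM, and by cystine brought in by the transporter SLC7A11; glutathione reductase (GSR) regenerates it with NADPH. Peroxidases spend it on peroxides, and glutathione transferases, named by class as alpha (Gsta), mu (Gstm), pi (Gstp), theta (Gstt), omega (Gsto) and microsomal (Mgst), attach it to electrophiles or use it for reduction. KEAP1 holds NRF2, the product of Nfe2l2, in the cytoplasm and targets it for degradation, and NRF2 freed by oxidants or electrophiles acts with small MAF proteins at antioxidant response elements near many of these genes. Most of that control is on the NRF2 protein, which RNA counts do not measure. Podocytes are long-lived cells, and oxidative damage to them is known from several models of glomerular disease.

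The core of the antioxidant response element, TGACNNNGC, was looked for on both strands in RefSeq promoter windows of GRCm38.p6, each reaching from 250 bases before a gene's start to 50 bases after it. Windows were matched by symbol for 33 of the 39 genes, and 12 of those genes had at least 1 match: Gclm, G6pdx, Pgd, Me1, Gsta3, Gstm5, Mgst1, Txnrd1, Srxn1, Prdx1, Sod1 and Nfe2l2. Among all gene symbols in the table, 14.0% had a match. The windows of Gstm1, Gstm2, Gstt1, Gsto1, Keap1 and Nqo1 held none, which says only that these letters are not there. The sites below belong to a transferase that fell under both amplitudes (Gsta3), to genes of synthesis, NADPH supply and the thioredoxin system that were measured higher without overlap between groups under high stretch (Gclm, G6pdx, Txnrd1, Srxn1), and to the pair whose match overlaps the AP-1 letters TGACTCA (Me1, Prdx1). The sites were thus picked with these values known. None of those 4 higher genes passed the high-stretch edgeR test without a block (adjusted p = 0.0655, 0.272, 0.157 and 0.433). Groups without overlap were also found for 20.6% of all genes there, and Txnrd1 and Srxn1 overlapped in TPM. Capitals mark the match, with 10 bases on either side in lower case, and the strand is that of the printed sequence.
Gsta3 (chr1:21240454-21240482, plus strand, match at -121 to -113 from the start): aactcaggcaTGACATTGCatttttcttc
Gclm (chr3:122245413-122245441, minus strand, match at -134 to -126): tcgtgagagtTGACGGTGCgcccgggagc
G6pdx (chrX:74428919-74428947, plus strand, match at -57 to -49): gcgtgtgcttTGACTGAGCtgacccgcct
Txnrd1 (chr10:82859104-82859132, minus strand, match at -92 to -84): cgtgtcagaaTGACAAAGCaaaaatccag
Srxn1 (chr2:152105542-152105570, minus strand, match at 28 to 36): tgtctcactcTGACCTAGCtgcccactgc
Me1 (chr9:86695902-86695930, minus strand, match at -6 to 2): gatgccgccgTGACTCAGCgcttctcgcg
Prdx1 (chr4:116685456-116685484, minus strand, match at -133 to -125): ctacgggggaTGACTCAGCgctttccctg
The 7 sites share the fixed letters of the core and differ in its 3 free positions, except that Me1 and Prdx1 hold the same 9 letters. A match is a description of the sequence and not evidence of binding.

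Total gene counts ranged from 262.0 to 396.7 M (megacounts) in experiment 1 and from 172.2 to 297.6 M in experiment 2, and the 39 genes together took between 0.268% and 0.485% of them. Unstretched replicate 3 of experiment 2 stood apart from its group, with a first principal component score of 32.48 against 121.4 and 162.6, so for genes described by sample the high-stretch value without it is given where the call changed or the value moved by over 1.5 times. Codes in the sample descriptions that read as neighbouring plate positions divide each experiment into 3 runs, each with 1 unstretched sample. Unless the plate run is named as a block, edgeR values come from the fit without it. Nothing in the labels states that the samples were separate cultures, so p-values measure the spread between these samples only, which may be technical. Of the podocyte markers reported here, Actn4, Synpo, Podxl and Cd2ap had group means of 18.5 CPM or more, Nphs1 (nephrin) had group means of 0.292 to 0.683 CPM, and Ptpro was near 0. CPM are counts scaled to library size after TMM normalization. Overlap between the stretched and unstretched samples of a gene was read in CPM unless another scale is named. Endothelial and leukocyte markers summed to at most 0.384 and 2.17 CPM in any sample. Lrp2 and Aqp1, which are also used as markers of the proximal tubule, were expressed, whereas Slc34a1 was near 0.

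In unstretched cells of experiment 1 the highest of the 39 genes was Gpx4, the peroxidase that removes lipid peroxides, at 1005 ± 78.0 TPM (SD, n = 3). TPM is a level scaled to transcript length and was summed over the transcripts of a gene. Cytosolic superoxide dismutase (Sod1), peroxiredoxin 1 (Prdx1), Gpx1 and Gstp1 followed at 637.2 ± 62.7, 594.2 ± 18.7, 484.8 ± 82.2 and 417.5 ± 56.1 TPM (SD, n = 3). Gpx4 lay above the others in every sample of that group, while the ranges of Sod1 and Prdx1 overlapped, as did those of Gpx1 and Gstp1. Thioredoxin (Txn1) and haem oxygenase 1 (Hmox1) came next at 293.4 ± 20.6 and 274.3 ± 82.6 TPM (SD, n = 3), with overlapping ranges. In experiment 2 these 7 genes again had the highest unstretched means, Gpx4 at 2034 ± 538 TPM (SD, n = 3) and Txn1 at 142.8 ± 53.8 TPM (SD, n = 3). Of the 39 genes, 7 exceeded 100 TPM in every one of the 15 samples, 28 had at least 1 TPM in every sample, and 9 had less than 1 TPM in every sample.

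**Figure D1:**
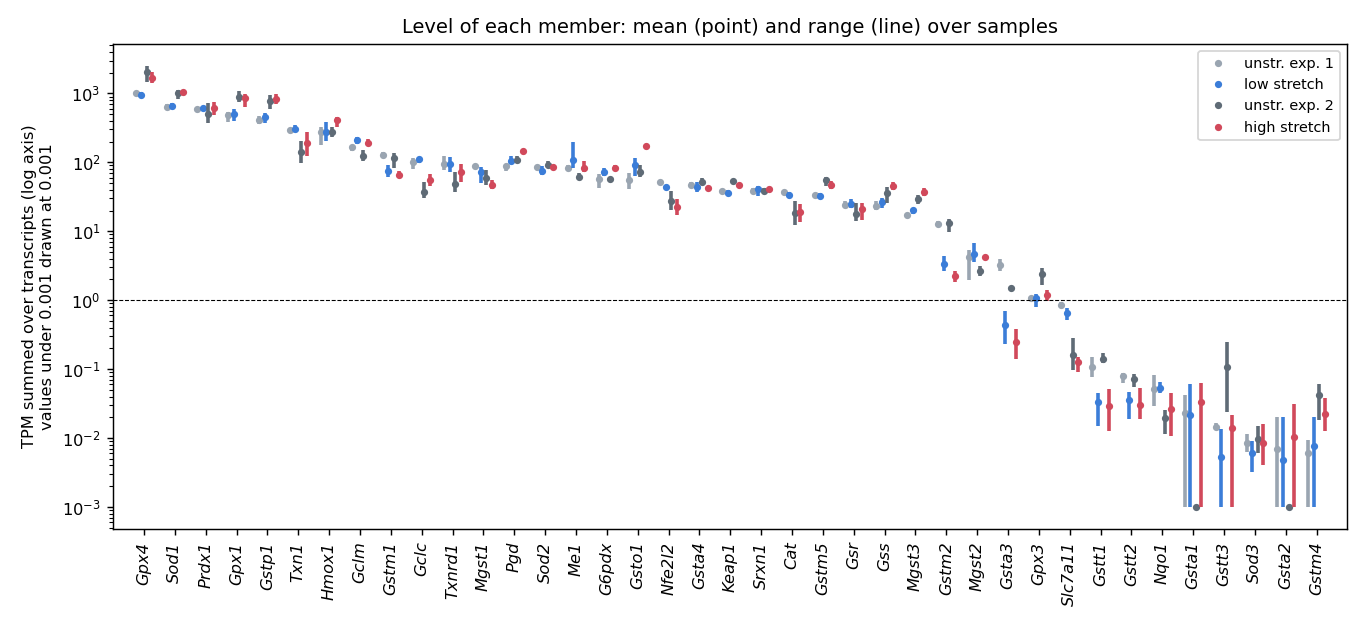
Level of each of the 39 genes in TPM on a log axis, ordered by level, with the mean of each group as a point and the range over its samples as a line; values under 0.001 TPM are drawn at 0.001 and the dashed line marks 1 TPM. Gpx4 is the highest, and 9 genes lie below the dashed line in all 4 groups.

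The 9 low genes were Slc7a11 and 8 genes with at most 30 counts in every sample: Gsta1, Gsta2, Gstm4, Gstt1, Gstt2, Gstt3, Sod3 and Nqo1. Nqo1, a quinone reductase and a widely used reporter of NRF2 activity, had between 3 and 28 counts per library and between 0.0108 and 0.0825 TPM. Other genes known as NRF2 targets were abundant in the same libraries: Gclm ranged from 103.7 to 236.6 TPM over the 15 samples, and Hmox1 had group means of 272.7 to 410.1 TPM. Slc7a11, the cystine carrier, had from 365 to 1104 counts but only 0.0901 to 0.945 TPM. The counts of Gpx4, Gstp1, Gsta1, Gsta2, Gstt3 and Me1 are uncertain, because 55.5%, 52.8%, 81.8%, 35%, 23.9% and 14.6% of the 100-base windows in their main transcript are also found in another gene, such as Gpx4-ps2 for Gpx4 and Gstp2 for Gstp1.

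Low stretch lowered Gsta3, Gstm2 and Gstm1 in the fit without a block and raised none of the 39 genes at the threshold. Gstt1 was called lower as well, on counts where only a fall could be called. With the plate run as a block edgeR also called 9 higher, beside 13.7% of all genes. Gsta3 (ENSMUSG00000025934), an alpha-class transferase known in the mouse for detoxifying aflatoxin, had 1.41, 1.67 and 1.97 CPM in the unstretched samples and a lowest, median and highest value of 0.134, 0.222 and 0.382 CPM in the 6 low-stretch samples. These low-stretch values rested on 42 to 122 counts. The groups did not overlap, and the stretched cells had 7.39-fold less, with a log2 fold change of -2.88 and a standard error (SE) of 0.28 in edgeR's quasi-likelihood test (Benjamini-Hochberg adjusted p = 0.00136). Gstm2 (ENSMUSG00000040562), of the mu class, had 6.34, 6.03 and 5.12 CPM unstretched against 1.21, 1.59 and 2.30 CPM as lowest, median and highest under low stretch. All stretched samples lay below all unstretched ones, at 3.59-fold less, with log2 fold change -1.84 (SE 0.19, edgeR adjusted p = 0.00185). Gstm1 (ENSMUSG00000058135), the most abundant mu-class gene among the 39, had 79.9, 73.6 and 69.3 CPM unstretched and 38.3, 46.7 and 62.3 CPM as lowest, median and highest under low stretch. It too did not overlap, but its change was smaller, at -0.64 on the log2 scale (SE 0.15, edgeR adjusted p = 0.0324). The call of Gstm1 was lost without low-stretch replicate 2, 4 or 6 or without unstretched replicate 1, 2 or 3, and its edgeR adjusted p lay between 0.0142 and 0.126 when any of the 9 samples was left out. Gstm1 shares 7.73% of its 100-base windows with a pseudogene, and Gsta3 shares none.

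Gstt1 (ENSMUSG00000001663), of the theta class, also passed (log2 fold change -1.85, SE 0.31, edgeR adjusted p = 0.00957), on 19, 18 and 13 counts unstretched and 2 to 7 counts under low stretch. It cleared the filter on low counts only through the unstretched samples, so it could be called in no other direction, and without unstretched replicate 1 its edgeR adjusted p was 0.052 (0.0153 to 0.052 when any of the 9 samples was left out). In bulk RNA a smaller share of cells that express a gene and less of its RNA per cell cannot be told apart. The summed level of 5 proximal tubule markers moved with these falls, from 998.9 to 1377 CPM in the unstretched samples to 487.7 to 808.6 CPM under low stretch, where 2 of the 4 markers tested fell and Slc34a1 stayed near 0. Its part in the falls was not tested.

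Without the block, edgeR called 4 of the 34 genes tested, beside 5.45% of all 21672 genes, and 1 of the 4 was Gstt1, which could be called only lower and from which nothing is read here. The other 5 of the 39 (Gsta1, Gsta2, Gstm4, Gstt3 and Sod3) had too few counts to be tested. Gsta3, Gstm1 and Gstm2 were lower, as were 3.6% of all genes against 1.85% higher. None was called higher in that fit, although 5 had an unadjusted p under 0.05 with a positive change, beside 11% of all genes, and DESeq2 called Gclm, G6pdx, Gsto1 and Mgst3 higher with 13.1% of all genes called in either direction. With the plate run as a block 9 were called higher (Gclc, Gclm, Gss, Gsr, G6pdx, Pgd, Gstp1, Gsto1 and Mgst3) and the same 4 lower. Of all genes 13.7% were called higher and 14.5% lower in that fit, 28.2% in either direction. The median log2 fold change was 0.12 over the 34 genes and 0.01 over all genes. The groups did not overlap in CPM for 8 genes, against 15.3% of all genes. Gclm, Pgd and Mgst3 were higher, and Gsta3, Gstm1, Gstm2, Gstt1 and Nfe2l2 were lower. In TPM the groups of Pgd and Mgst3 overlapped, while those of Slc7a11 and Gstt2, both lower, did not. Gstt2 had only 10 to 12 counts unstretched and 3 to 11 under low stretch, and nothing is read from it. The share of all genes without overlap in TPM was not counted in either experiment.

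**Figure D2:**
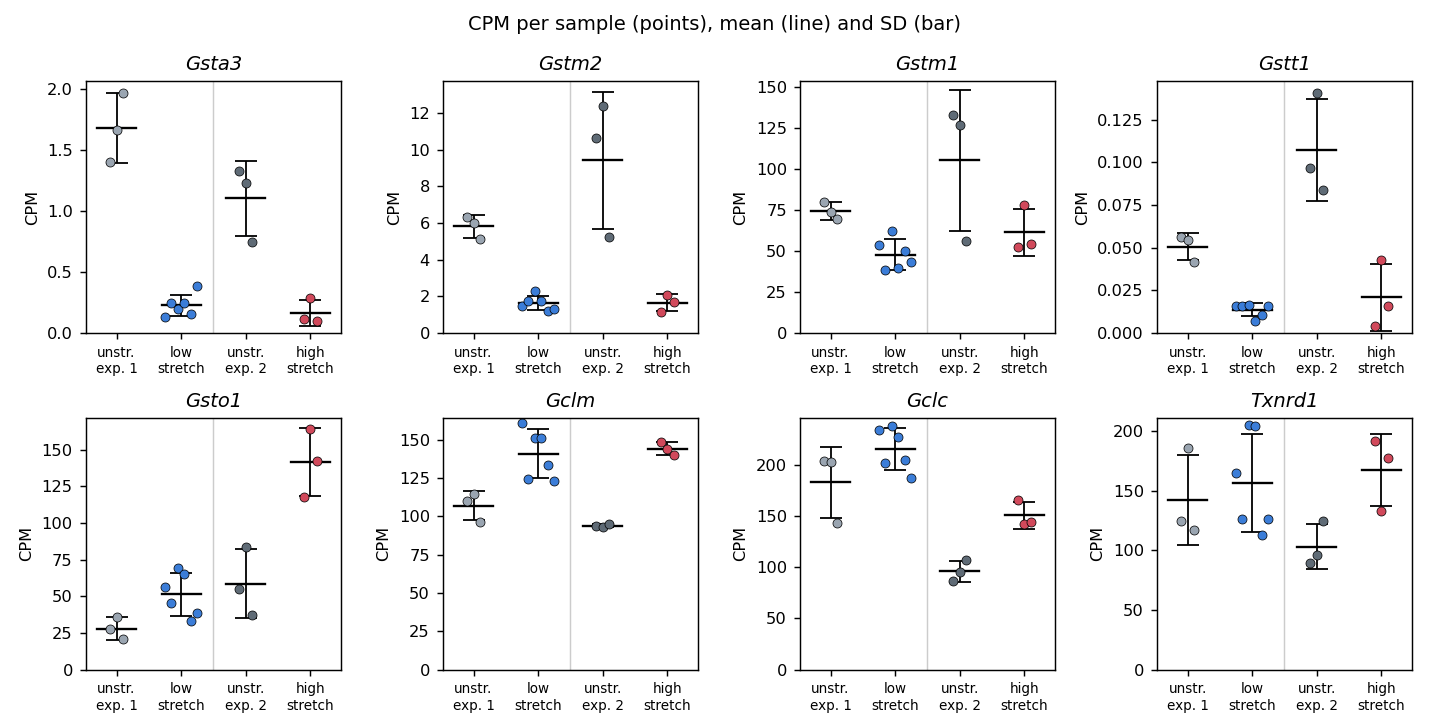
CPM in each sample (points) with the group mean (horizontal line) and SD (bar) for 8 genes, unstretched and stretched samples of experiment 1 to the left of the grey line and of experiment 2 to the right. Gsta3 and Gstm2 are lower in every stretched sample than in every unstretched sample of the same experiment, and Gclm is higher in every one.

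In the fit without a block, high stretch lowered Gstm2 and Gsta3, the same pair that had the largest falls under low stretch among the transferases tested other than Gstt1. Gstm2 had 10.6, 12.4 and 5.23 CPM in the unstretched samples of experiment 2 and 1.16, 2.09 and 1.71 CPM under high stretch. No sample overlapped, and the level was 5.63-fold lower, with log2 fold change -2.49 (SE 0.37, edgeR adjusted p = 0.0146). Gsta3 had 1.33, 1.23 and 0.75 CPM unstretched and 0.113, 0.284 and 0.0968 CPM under high stretch, the latter on only 28, 40 and 24 counts. Again no sample overlapped, at 6.79-fold less, with log2 fold change -2.76 (SE 0.46, edgeR adjusted p = 0.0216). Without unstretched replicate 3, the sample that stands apart, the log2 fold changes were -2.76 for Gstm2 and -2.98 for Gsta3 (edgeR adjusted p = 0.000313 and 0.0021). Both calls were lost without high-stretch replicate 1, high-stretch replicate 3 or unstretched replicate 1, where their edgeR adjusted p-values reached 0.101 and 0.117.

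The other transferases did not pass under high stretch in that fit. Gstm1 had 132.9, 126.8 and 55.9 CPM unstretched and 52.5, 77.9 and 53.9 CPM under high stretch. Its groups overlapped through the unstretched replicate that stands apart, at -0.75 on the log2 scale (SE 0.33, edgeR adjusted p = 0.34, and 0.00945 without that sample, the lowest of a range up to 0.812 when any of the 6 samples was left out). Gstt1 rested on 15, 19 and 23 counts against 1, 6 and 4 (log2 fold change -2.46, edgeR adjusted p = 0.0958, and 0.0435 without unstretched replicate 3, in a range up to 0.395, or 0.00301 with the plate run as a block, in a range up to 0.101). Here too Gstt1 cleared the filter only through the unstretched samples, so it could be called in no other direction and nothing is read from it. Gsto1 (ENSMUSG00000025068), the omega-class transferase, which reduces dehydroascorbate and arsenic compounds, was measured in the opposite direction. It had 54.9, 83.9 and 37.2 CPM unstretched and 118.1, 164.2 and 142.6 CPM under high stretch, with every stretched sample above every unstretched one. The log2 fold change of 1.29 (SE 0.29) missed the threshold (edgeR adjusted p = 0.0553, and 0.0126 without unstretched replicate 3, in a range of 0.0101 to 0.241), but passed with the plate run as a block (edgeR adjusted p = 3.25e-05, in a range up to 0.062 over 6 alternatives). On 6 samples that block leaves few degrees of freedom. So low a value leans on the spread edgeR shares across genes and not on these runs alone. Under low stretch Gsto1 had 27.6, 35.9 and 20.8 CPM unstretched and 33.2, 50.9 and 69.3 CPM as lowest, median and highest, so the groups overlapped (log2 fold change 0.86, SE 0.26, edgeR adjusted p = 0.0772, and 7.2e-05 with the plate run as a block).

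In experiment 2 the 2 calls without a block among 32 genes tested compare with 3.47% of 18524 genes, and Nqo1 and Gstt2 joined the 5 genes with too few counts. None was called higher in that fit, while 7 had an unadjusted p under 0.05 with a positive change, beside 6.42% of all genes, and DESeq2 called Gclc, Gclm and Gsto1 higher with 7.57% of all genes called in either direction. edgeR called the same 3 higher in 1 fit of all 15 samples, and Gsto1 and Txnrd1 higher with the plate run as a block. The groups did not overlap for 14 of the 32, against 20.6% of all genes. The 9 higher were Gclc, Gclm, G6pdx, Me1, Gsto1, Mgst2, Txnrd1, Srxn1 and Prdx1, and the 5 lower were Gsta3, Gstm2, Gstt1, Mgst1 and Gpx3. In TPM the groups of Gclc, Txnrd1, Srxn1, Prdx1 and Mgst1 overlapped. Those of Hmox1 and Pgd (higher) and of Gstm1, Gsta4 and Keap1 (lower) did not overlap on that scale. The median log2 fold change was 0.15 over the 32 genes and -0.02 over all genes. Without unstretched replicate 3, 8 of the genes passed, Gclc, Gclm, Gsto1 and Txnrd1 higher and Gsta3, Gstm1, Gstm2 and Gstt1 lower, while 7.77% of all genes passed. The summed proximal tubule markers ranged from 946.5 to 1263 CPM unstretched and from 326.6 to 480.5 CPM under high stretch, most of it in Aqp1, which fell, and Lrp2. The summed mesangial or smooth muscle markers, mostly Acta2, ranged from 2584 to 7305 CPM unstretched and from 6597 to 10590 CPM under high stretch, and from 1278 to 2019 and 1526 to 3972 CPM in the groups of experiment 1. Under high stretch 0 of the 5 such markers tested passed, and their median log2 fold change was -0.42, opposite in sign to the change of the sum. Of 8 podocyte markers tested under high stretch 0 rose and 1 fell, Wt1, by 2.36 in log2 units (edgeR adjusted p = 0.0311, and by 1.67 without unstretched replicate 3). The median over the 8 was -0.19, and the summed podocyte markers ranged from 1648 to 2648 CPM unstretched and from 2187 to 2898 CPM under high stretch. The part of these markers in the results was not tested.

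**Figure D3:**
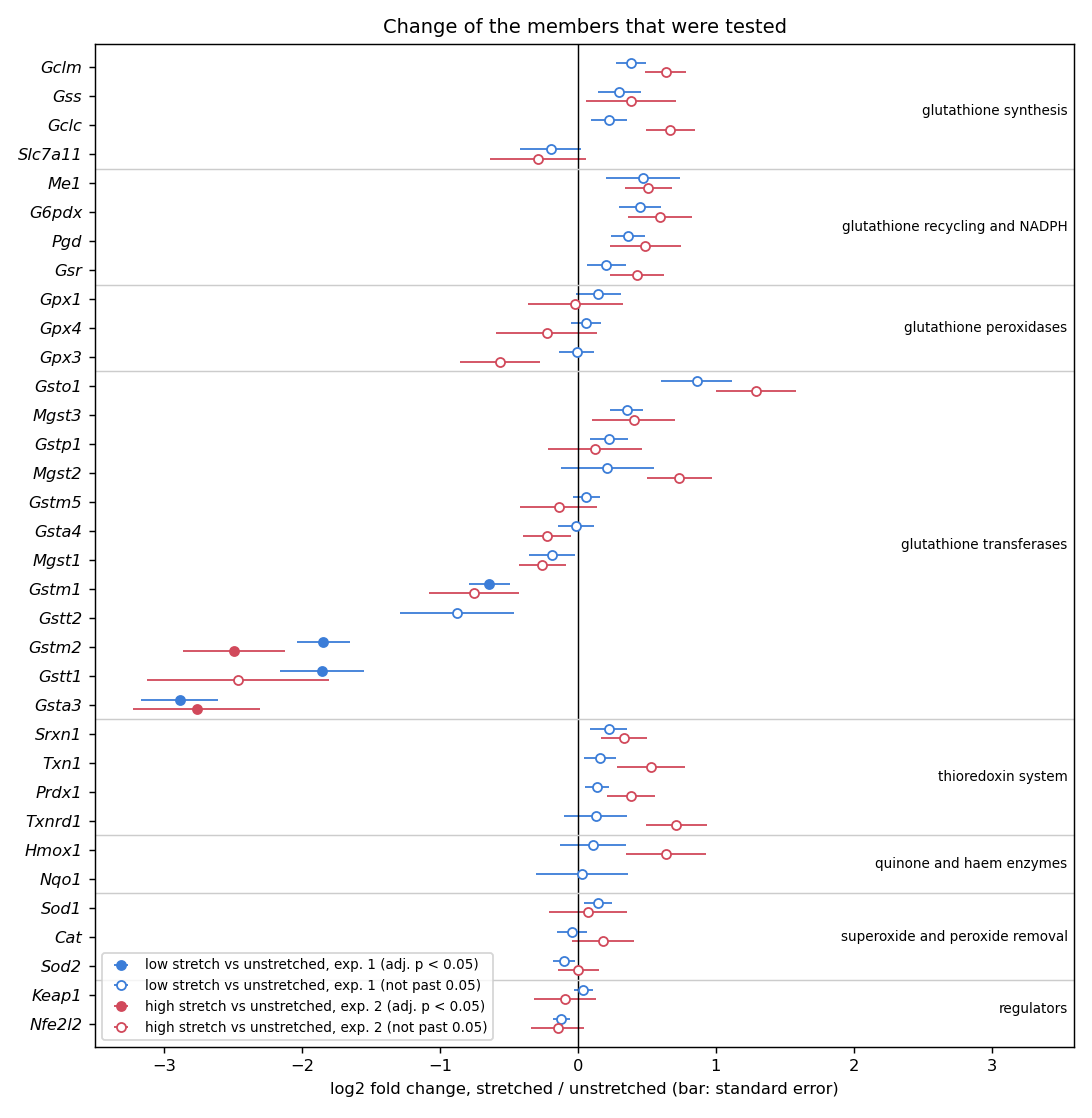
Log2 fold change of stretched over unstretched samples for the genes tested, grouped by role, with bars of 1 standard error, low stretch in blue and high stretch in red; filled points have an edgeR adjusted p under 0.05 in the fit without a block. The filled points are Gsta3, Gstm1 and Gstm2 under low stretch and Gsta3 and Gstm2 under high stretch, all below 0. Gstt1 is filled as well under low stretch, on counts where only a fall could be called.

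Genes of glutathione synthesis other than Slc7a11 gave small positive log2 fold changes that missed the threshold in the edgeR fit of each experiment without a block. Gclm, Gclc and Gss passed under low stretch with the plate run as a block. DESeq2 called Gclm under low stretch (DESeq2 adjusted p = 0.0173), beside 13.1% of all genes. Under high stretch DESeq2 called Gclm and Gclc (DESeq2 adjusted p = 0.00545 and 0.0174), beside 7.57% of all genes. A fit of all 15 samples called the same pair under high stretch (edgeR adjusted p = 0.00858 and 0.0165), beside 6.76%. Gclm had 110.0, 114.8 and 96.4 CPM unstretched in experiment 1 and 122.9, 142.3 and 160.9 CPM as lowest, median and highest under low stretch. In experiment 2 it had 93.7, 93.1 and 95.2 CPM unstretched and 148.4, 143.8 and 140.1 CPM under high stretch. Every stretched sample of either experiment lay above every unstretched one, with log2 fold changes of 0.39 (SE 0.11, edgeR adjusted p = 0.0627) and 0.64 (SE 0.15, edgeR adjusted p = 0.0655). With the plate run as a block the edgeR adjusted p-values of Gclm were 0.0033 and 0.0835, within ranges of 0.0033 to 0.183 and 0.00545 to 0.0938 over 6 alternatives, and without unstretched replicate 3 the high-stretch value was 0.0266, in a range up to 0.331. Gclc, the catalytic subunit, had 203.4, 202.6 and 143.1 CPM unstretched and 187.0, 215.6 and 238.3 CPM as lowest, median and highest under low stretch, with overlap (log2 fold change 0.23, edgeR adjusted p = 0.314, and 0.0376 with the plate run as a block, in a range up to 0.438). In experiment 2 Gclc had 86.3, 95.2 and 106.6 CPM unstretched and 165.8, 142.1 and 144.5 CPM under high stretch. Those groups did not overlap (log2 fold change 0.67, SE 0.18, edgeR adjusted p = 0.0917, and 0.0187 without unstretched replicate 3, in a range up to 0.44). Slc7a11 had 2.69, 3.34 and 1.65 CPM unstretched and 1.63, 2.32 and 2.65 CPM as lowest, median and highest under low stretch, and 2.60, 3.66 and 1.95 CPM unstretched against 1.48, 3.21 and 1.96 CPM under high stretch. Its groups overlapped in both experiments (log2 fold changes -0.20 and -0.29, the second -0.45 without unstretched replicate 3, edgeR adjusted p = 0.628 and 0.846). Glutathione synthetase (Gss), the second enzyme of the route, had log2 fold changes of 0.30 (edgeR adjusted p = 0.271, and 0.00515 with the plate run as a block, in a range up to 0.592) and 0.38 (0.12 without unstretched replicate 3).

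The 4 genes that regenerate glutathione or make NADPH for it had positive log2 fold changes in both experiments. Under low stretch their log2 fold changes lay between 0.21 for Gsr and 0.47 for malic enzyme (Me1, 0.21 without low-stretch replicate 1), and under high stretch between 0.43 for Gsr and 0.60 for glucose-6-phosphate dehydrogenase (G6pdx), with 0 of 4 past the threshold in either edgeR test without a block. With the plate run as a block Gsr, G6pdx and Pgd passed under low stretch (edgeR adjusted p = 0.0283, 0.0032 and 0.0113, in ranges up to 0.564, 0.215 and 0.355 over 6 alternatives) and 0 of 4 passed under high stretch. In CPM the groups of phosphogluconate dehydrogenase (Pgd) did not overlap under low stretch, at a log2 fold change of 0.36. Under high stretch they overlapped, at 0.49 (0.29 without unstretched replicate 3). In TPM they overlapped under low stretch alone. Of the thioredoxin system, thioredoxin reductase 1 (Txnrd1) had 124.5, 185.6 and 117.1 CPM unstretched and 112.9, 145.6 and 205.1 CPM as lowest, median and highest under low stretch, with wide overlap (log2 fold change 0.13, edgeR adjusted p = 0.767). In experiment 2 it had 89.2, 95.8 and 124.6 CPM unstretched and 191.5, 133.3 and 177.1 CPM under high stretch. These did not overlap (log2 fold change 0.71, SE 0.22, edgeR adjusted p = 0.157, and 0.0193 without unstretched replicate 3, in a range up to 0.552, or 0.0488 with the plate run as a block, in a range up to 0.142). Sulfiredoxin (Srxn1), which repairs overoxidised peroxiredoxins, had 44.6, 51.7 and 43.8 CPM unstretched and 40.7, 58.9 and 62.6 CPM as lowest, median and highest under low stretch. It had 67.4, 76.3 and 56.7 CPM unstretched in experiment 2 and 80.4, 87.4 and 81.6 CPM under high stretch, without overlap. Its log2 fold changes of 0.22 and 0.34 did not pass (edgeR adjusted p = 0.345 and 0.433), nor did those of Prdx1 and Txn1.

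Hmox1, which degrades haem, had 235.1, 228.7 and 130.3 CPM unstretched and 152.1, 197.6 and 304.6 CPM as lowest, median and highest under low stretch. In experiment 2 it had 303.7, 425.2 and 200.2 CPM unstretched and 471.0, 572.7 and 381.5 CPM under high stretch. The groups overlapped in CPM in both experiments (log2 fold changes 0.11 and 0.64, edgeR adjusted p = 0.817 and 0.366). The second log2 fold change was 0.44 without unstretched replicate 3. In TPM the groups of experiment 2 did not overlap, at 236.7 to 326.2 unstretched and 328.0 to 460.9 under high stretch. Nqo1 could be tested under low stretch alone, on 28, 11 and 11 counts unstretched and 14 to 18 counts in the 6 stretched samples (log2 fold change 0.03, edgeR adjusted p = 0.971). In experiment 2 it had 4, 3 and 5 counts unstretched and 7, 3 and 16 counts under high stretch, too few to compare at this depth. The peroxidases, Sod1, mitochondrial Sod2 and catalase (Cat) gave no call, and the largest log2 fold change among them was -0.57, for Gpx3 under high stretch (edgeR adjusted p = 0.447).

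Neither regulator passed under either amplitude. Nfe2l2 had 61.7, 61.0 and 64.4 CPM unstretched and 52.0, 58.5 and 60.4 CPM as lowest, median and highest under low stretch. The groups did not overlap, although the log2 fold change was only -0.12 with a 95% interval of -0.26 to 0.02 (edgeR adjusted p = 0.28). In experiment 2 it had 45.6, 43.9 and 55.3 CPM unstretched and 49.8, 37.7 and 41.5 CPM under high stretch, with overlap (log2 fold change -0.15, interval -0.60 to 0.30, and -0.00085 without unstretched replicate 3). Keap1 had 44.5, 47.1 and 48.1 CPM unstretched and 44.5, 48.7 and 50.9 CPM as lowest, median and highest under low stretch, and 111.5, 117.0 and 70.8 CPM unstretched against 76.8, 103.8 and 95.8 CPM under high stretch. Its groups overlapped in CPM in both experiments (log2 fold changes 0.04 and -0.09, edgeR adjusted p = 0.766 and 0.935). The second log2 fold change was -0.26 without unstretched replicate 3. In TPM the groups of experiment 2 did not overlap, at 49.3 to 56.7 unstretched and 44.1 to 47.8 under high stretch.

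In experiment 1 samples of the same plate run deviated together from their group means, with a correlation across genes of 0.328 to 0.57, and in experiment 2 from -0.163 to 0.45. With the run as a block, 9 genes were called higher under low stretch, beside 13.7% of all genes. Their edgeR adjusted p-values lay between 7.2e-05 for Gsto1 and 0.0376 for Gclc. Within the runs of experiment 1 the log2 difference of Gclm lay between 0.36 and 0.41, that of G6pdx between 0.33 and 0.68 and that of Gsto1 between 0.78 and 0.91, positive in 3 of 3 runs for each. The share of all genes with the same sign in every run was not counted. The value of Gsto1 with the block was the lowest of a range reaching 0.11 over its 6 alternatives. In experiment 2 the block gave 5 calls, beside 8.35% of all genes: Gsta3, Gstm2 and Gstt1 lower, Gsto1 and Txnrd1 higher. Within those runs Gstm2 differed by -3.19 to -1.61, Gsta3 by -3.48 to -2.09, Gsto1 by 0.97 to 1.94 and Txnrd1 by 0.48 to 1.10 on the log2 scale. Gstm1 was lower in 3 of 3 runs of each experiment, by -1.34 to -0.05 in experiment 2. Keap1 and Nfe2l2 had runs of either sign there.

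**Figure D4:**
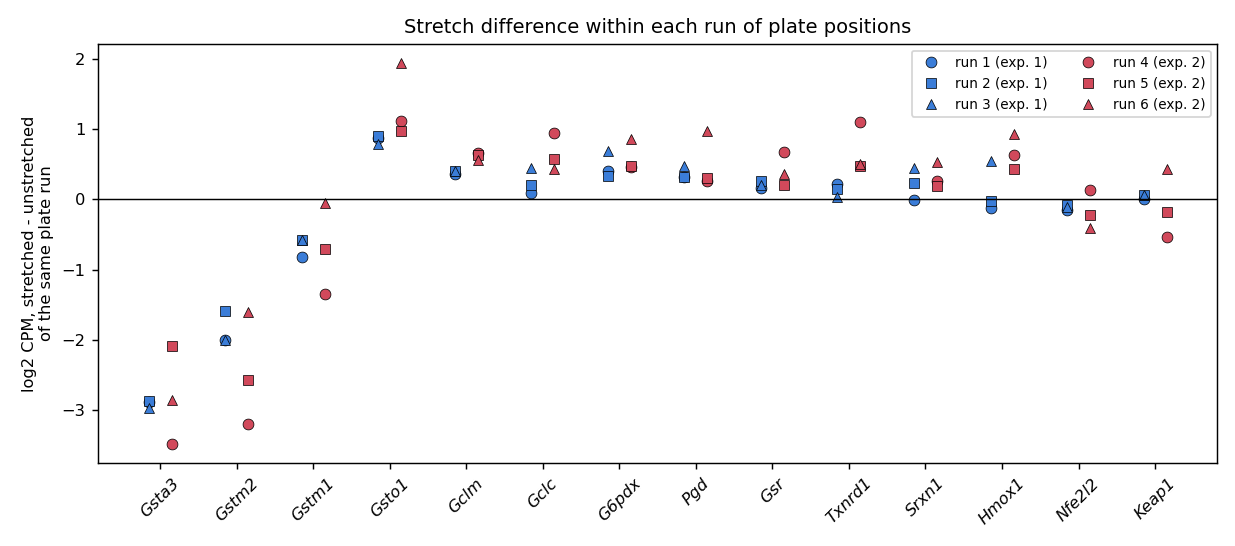
Difference in log2 CPM between stretched and unstretched samples within each run of plate positions for 14 genes, experiment 1 in blue and experiment 2 in red. Gsta3, Gstm2 and Gstm1 lie below 0 in all 6 runs, and Gsto1, Gclm, Gclc, G6pdx, Pgd, Gsr and Txnrd1 lie above 0 in all 6.

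The effects of the amplitudes were compared by the contrast of the stretch effects over all 15 samples. edgeR and DESeq2 each called 0 of 22015 genes, and 2.48% of all genes but 0 of the 34 tested here had an unadjusted p under 0.05. The lowest unadjusted p was 0.0532, for Gclc, whose log2 fold change was greater by 0.42 under high stretch with a 95% interval of -0.01 to 0.84. For Gstm2 the difference was -0.67 (interval -1.52 to 0.17), for Gsta3 0.09 (-1.06 to 1.24), for Gsto1 0.40 (-0.45 to 1.25) and for Gclm 0.22 (-0.13 to 0.58). The intervals are wide, and these values do not show that the amplitudes act alike.

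The unstretched samples of the experiments differed in 17 of the 34 genes tested, beside 62.5% of all genes. Higher in experiment 2 were all 3 peroxidases, with log2 fold changes of 1.32 for Gpx3, 1.55 for Gpx1 and 1.69 for Gpx4, the transferases Gstm5, Gstp1, Gsta4, Gsto1, Gstt1 and Mgst3, and Gss, Pgd, Srxn1, Sod1 and Keap1. For all 17 genes called, the ratio of experiment 2 to experiment 1 was smaller in TPM than in CPM. The unstretched TPM means of experiments 1 and 2 were 1005 and 2034 for Gpx4, 484.8 and 892.0 for Gpx1, and 417.5 and 779.9 for Gstp1. Their CPM ratios were 3.23, 2.93 and 2.93. The TPM means were 89.0 and 109.4 for Pgd, 38.5 and 53.6 for Keap1, and 38.3 and 38.8 for Srxn1. Their CPM ratios were 1.94, 2.12 and 1.41, so Srxn1 differed in CPM alone. Gclc had TPM means of 102.5 and 37.7 at a CPM ratio of 0.518. Slc7a11, which was not called, had TPM means of 0.853 and 0.161 at a CPM ratio of 1.06. Lower were Gclc, Txn1 and Cat, with log2 fold changes of -0.95, -0.52 and -0.50. Keap1 had 46.5 ± 1.86 CPM in experiment 1 and 99.8 ± 25.3 CPM in experiment 2 (SD, n = 3 each; edgeR adjusted p = 0.00558), whereas Nfe2l2 had 62.4 ± 1.80 and 48.3 ± 6.15 CPM (edgeR adjusted p = 0.0691). Across the 34 genes the baseline log2 fold change correlated with the GC content of the main transcript (Pearson 0.659, Spearman 0.72). For the stretch comparisons these correlations were 0.061 and 0.227 under low stretch and -0.0615 and -0.112 under high stretch (32 genes). Genes are not independent replicates and share their libraries, and the part of GC content in the baseline differences was not tested. Without unstretched replicate 3 of experiment 2, 25 of the genes passed, beside 73% of all genes. Experiment and any difference in handling cannot be told apart.

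Other genes of the pathway came from lists chosen by function, also with earlier results of these data known. Their calls stand beside 5.45% of all genes under low stretch and 3.47% under high stretch, or 28.2% and 8.35% with the plate run as a block. Among 29 further glutathione enzymes, 2 of 23 tested fell under low stretch and 0 rose, and 2 of 24 fell and 1 rose under high stretch. With the block these counts were 5 lower and 3 higher under low stretch and 4 lower and 1 higher under high stretch. Gstm7, of the mu class, fell by 0.96 on the log2 scale under low stretch (edgeR adjusted p = 0.0194) and gave -1.27 under high stretch (adjusted p = 0.055, and 0.00496 without unstretched replicate 3). Gstm3 and Gstm6 fell by 1.81 and 1.84 under high stretch (edgeR adjusted p = 0.0352 and 0.0381), on 0.254 and 0.577 CPM in unstretched cells. Gstm5, a member of the same class in the main list, had log2 fold changes of 0.06 and -0.14. Reads of mu-class genes may be shared among relatives, so the counts of the low members are uncertain. Ggt6 fell by 1.02 under low stretch (adjusted p = 0.0253), and esterase D (Esd), which hydrolyses S-formylglutathione, rose by 0.94 under high stretch (adjusted p = 0.0391).

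Of 13 further NRF2 regulators, Bach2, a repressor that competes at the same elements, rose by 0.83 under low stretch (edgeR adjusted p = 0.0417), and Maff, a small MAF partner of NRF2, rose by 1.49 under high stretch (adjusted p = 0.0237). Nfe2l1, the NRF2 relative NRF1, fell by 0.36 under low stretch (adjusted p = 0.0139). Of 32 further NRF2 target genes, 29 were tested in each comparison. Under low stretch 0 passed without the block, and 7 were higher and 5 lower with it. Under high stretch the glutathione-conjugate exporter Abcc1 rose by 0.80 while Abcc3 fell by 1.97 (edgeR adjusted p = 0.0381 and 0.0311), and with the block 3 were higher and 1 lower. Without unstretched replicate 3 the high-stretch counts were 3 higher and 3 lower among these targets, 2 higher and 0 lower among the 13 regulators, and 1 higher and 4 lower among the 29 glutathione enzymes, beside 7.77% of all genes. In the list of 17 thioredoxin and peroxiredoxin genes Txnl1 rose by 0.33 and Sesn2 fell by 0.40 under low stretch (edgeR adjusted p = 0.0197 and 0.0309), and 0 passed under high stretch. Of 21 oxidant-producing enzymes Cybb alone passed, lower under low stretch on a mean of 0.125 CPM in unstretched cells. Slc7a5, the large neutral amino acid carrier, fell by 0.78 under low stretch (edgeR adjusted p = 0.00506), and it and Sesn2 were the only calls among 16 genes of the amino acid response. Selenoprotein P (Selenop) fell by 0.73 and Acsl4, a lipid enzyme of ferroptosis, rose by 0.73 under low stretch (edgeR adjusted p = 0.00608 and 0.0293), the only calls among 12 further genes of selenoprotein synthesis and ferroptosis, where 0 passed under high stretch. With the block the low-stretch counts were 3 higher and 2 lower for the regulators and for the 17 thioredoxin genes, 3 and 3 for the oxidant-producing enzymes, 3 and 5 for the amino acid response, and 2 and 2 for the selenoprotein and ferroptosis genes. Under high stretch each of the last 4 of these lists had 0 to 1 gene higher and 1 to 2 lower with the block, and 0 to 1 higher and 0 to 2 lower without unstretched replicate 3.

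Transcript usage, the share of a gene's TPM given to each transcript, was tested with limma for the study's question on splicing. Under low stretch 0 of 45 transcripts from 17 of the genes passed, beside 0.0144% of 27720 transcripts. The lowest p belonged to Gsta3-203 (ENSMUST00000124990), whose share was 5.14% ± 3.29 (SD, n = 3) unstretched and 15.3% ± 14.8 (SD, n = 6) under low stretch (limma adjusted p = 0.179), on a TPM of 0.0637. Gsta3 reached the required mean of 1 TPM only through the unstretched samples, at 2.66 to 3.95 TPM against 0.231 to 0.702 TPM. The 0.1 TPM added to both sides exceeds the transcript's low-stretch level, so the tested ratio rises as the gene falls. Nothing on splicing is read from it. Under high stretch 0 of 37 transcripts from 14 genes passed, beside 0 of 23408. Srxn1-201 (ENSMUST00000041500), the full-length coding transcript, took 79.2% to 81.3% of its gene in the unstretched samples and 88.2% to 92.1% under high stretch, without overlap (limma adjusted p = 0.287). Gss-203 (ENSMUST00000130881) took 9.47% to 11.9% and 14.8% to 20.1% (limma adjusted p = 0.393). A second Srxn1 transcript, Srxn1-202 (ENSMUST00000128882), which is not a coding one, also had an unadjusted p under 0.01, with 10.6% ± 0.674 unstretched and 2.74% ± 1.96 under high stretch (SD, n = 3 each; limma adjusted p = 0.385). Unadjusted p-values under 0.05 were found for 2 of the 45 and 6 of the 37 transcripts, against 10% and 8.04% of all transcripts tested.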

How the data were processed

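Poly(A) RNA of 15 samples was sequenced from stranded paired-end libraries, per the labels' protocols. The authors deposited raw gene counts (55416 genes) and transcript TPM values (140789 transcripts). The submitters' processing notes name mm39, STAR 2.7.5c, featureCounts, Subread 2.0.0, DESeq2 1.38.3 and Salmon 1.9.0, with no roles. The annotation, the strand setting and whether a read pair was counted once are not given in the sources used here. Symbols and the links of transcripts to genes came from GENCODE M21 (52135 genes and 137189 transcripts matched), and promoter windows came from RefSeq GRCm38.p6. No coordinates were converted.

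The gene counts went into edgeR 4.0.16 under R 4.3.3 (filterByExpr, TMM scaling, quasi-likelihood F test, Benjamini-Hochberg adjustment over all genes tested, threshold 0.05). For transcript usage limma 3.58.1 compared log2 ratios of each transcript to the remaining transcripts of its gene, with 0.1 TPM added to both, for genes with a mean of at least 1 TPM and mean shares of 0.05 to 0.95. The alternatives were DESeq2 1.42.0, RLE size factors, no filter, 1 fit of all samples, a block on the replicate number or the plate run, pseudocounts of 0.01 and 1 TPM, and each sample left out in turn. The block on the replicate number used replicates 1 to 3 only, so it left out low-stretch replicates 4, 5 and 6. In experiment 1 it also matched samples of different plate runs. In experiment 2 it is the same fit as the plate run block, and both count among the 6 alternatives. Its values are part of the ranges given over 6 alternatives. In simulated counts where 200 genes had a log2 change of 2, edgeR recovered 100.0% in the low-stretch design (21577 genes) and 100.0% in the high-stretch design (18541 genes), with 14 and 5 false calls. The usage test recovered 92.0% of 200 changed transcripts in the low-stretch design (27662 transcripts) and 93.5% in the high-stretch design (23405 transcripts), with 16 and 28 false calls. Both simulations drew samples independently, with the same noise setting for every gene or transcript, no plate runs and no sample that stood apart. Changes were placed only in well-counted genes and in transcripts above 1 TPM. The recovery therefore does not carry over to smaller changes, low counts or samples that share a run.

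The genes and lists were chosen with earlier results of these data known. Values per sample are given for genes that passed in a stretch comparison, for 9 genes of the NRF2 system whatever their values, and for the 5 lowest p-values of each stretch comparison. Genes of the further lists are named where they passed. For each gene the transcript with the lowest p is named where that unadjusted p was under 0.01, and Srxn1-202 was added after its values were seen. The numbers in the titles did not pair samples by their correlations, and in experiment 2 they coincide with the plate runs.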

Additional observations from a re-analysis of the deposited data

Results flagged for a closer look

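Among 34 genes examined in the 6 low-stretch samples, 4 had a sample that stood apart by Dixon's test, where chance flags about 1 in 20 groups. The gap to the nearest sample, as a share of the group's range, was 0.911 for Me1, where low-stretch replicate 1 had 295.8 CPM and the others 121.8 to 137.3 CPM. It was 0.781 for Gstm5, highest in replicate 3 at 13.7 CPM, and 0.674 for Gstt2, highest in replicate 4 on 11 counts. It was 0.646 for Nfe2l2, lowest in replicate 2 at 52.0 CPM.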

How the results depend on the processing

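The falls of Gsta3 and Gstm2 under low stretch passed in all 6 alternatives that kept every group and in all 9 fits that each left out a sample, and under high stretch in all 6 alternatives and in 3 of 6 such fits. Counts of calls depended on the setting. Under low stretch (1181 genes, 4 of the genes described here), DESeq2 called 2837 and 8, and the plate run block 6106 and 13. The replicate block, on low-stretch replicates 1 to 3 only, called 490 and 2, and 1 fit of all 15 samples called 640 genes. Fits without a sample gave 220 to 1630 genes and 2 to 6 of those described, fewest genes without unstretched replicate 3. Under high stretch (643 and 2), DESeq2 called 1403 and 6, no filter 1050 genes, the block on replicate number (the same as the plate run block there) 1546 and 5, and 1 fit of all samples 1488 and 6. Fits without a sample gave 14 to 1421 genes and 0 to 8 of those described, with 14 without high-stretch replicate 3 and 1421 without unstretched replicate 3. The baseline comparison gave 9312 to 15698 genes and 12 to 25 of those described without a sample, and the difference between the effects gave 0 and 0, with 3 genes under the plate run block. Usage under low stretch gave 75 transcripts with a pseudocount of 1 TPM, 1 with 0.01 TPM and 91 with no filter. It gave 0 with the replicate block, 37 with the plate run block and 1 to 8 without a sample. Of these genes' transcripts, 1 passed with a pseudocount of 1 TPM and 2 with no filter. The call with 1 TPM was the Gsta3 transcript named above (limma adjusted p = 0.00174), which did not pass with no filter (limma adjusted p = 0.12). The 1 TPM added to both sides exceeds the whole low-stretch level of Gsta3 (at most 0.702 TPM), so the tested ratio rises as the gene falls. Nothing on splicing is read from that call. Usage under high stretch gave 3, 7 and 0 to 10 transcripts with a pseudocount of 1 TPM, no filter and a sample left out.

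Signs near 0 reversed. Keap1 under low stretch was -0.00034 with the replicate block, Gpx1 under high stretch 0.014 with no filter, Sod2 under high stretch -0.015 with all samples, and Srxn1-201 usage under low stretch -0.025 with the replicate block. Without a sample, low-stretch log2 fold changes ranged from -0.10 to 0.0027 for Cat, -0.064 to 0.038 for Gpx3, -0.012 to 0.11 for Gpx4, -0.10 to 0.048 for Gsta4, -0.13 to 0.24 for Hmox1, -0.13 to 0.44 for Mgst2, -0.19 to 0.58 for Nqo1, -0.44 to 0.060 for Slc7a11, -0.0024 to 0.38 for Txnrd1, -0.026 to 0.14 for Srxn1-201 and -0.19 to 0.36 for Gss-203 usage. High-stretch values ranged from -0.24 to 0.32 for Gpx1, -0.51 to 0.10 for Gpx4, -0.35 to 0.046 for Gstm5, -0.14 to 0.45 for Gstp1, -0.26 to 0.043 for Keap1, -0.15 to 0.29 for Sod1 and -0.030 to 0.057 for Sod2. The difference ranged from -0.50 to 0.37 for Gsta3, -0.38 to 0.060 for Gstm1, -0.17 to 0.13 for Nfe2l2 and -0.48 to 0.14 for Slc7a11, and the baseline from -0.17 to 0.32 for Slc7a11. The cause of these changes was not tested. Samples with the same number correlated at -0.44 to 0.365 in experiment 1 and -0.163 to 0.45 in experiment 2. Depth limits Nqo1, Gstt1 and the 6 other genes with at most 30 counts.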
